A study of Mus musculus with 24 samples.

Results

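A set of 10 genes of cholesterol handling in macrophages was followed across an RNA sequencing (RNA-seq) experiment on mouse bone marrow–derived macrophages (BMDM): *Ch25h*, *Soat1*, *Soat2*, *Abca1*, *Abcg1*, *Nr1h3*, *Mylip*, *Apoe*, *Cyp27a1* and *Npc1*. They were taken by name, each symbol matched 1 Ensembl identifier among the 56884 genes of the count table, and all 10 were among the 13679 genes tested. *Soat2*, with at most 5 reads in any naïve or IL-4/IL-13 library, met the read filter only through the inhibitor groups. Its place in the counts below is therefore no separate result. The genes were chosen by name with earlier results on the levels of single genes in these libraries known, and which of those values weighed in the choice is not recorded, so the calls below describe these genes and say nothing about how they stand among other genes.

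BMDM are grown from bone marrow in the growth factor M-CSF, here from wild-type female mice aged 9 weeks, which carry the numbers 1, 2, 4 and 5, and each of the 4 mice gave 1 library in each of 6 conditions. Naïve macrophages were left unstimulated for 24 hours, and the IL-4/IL-13 group received IL-4 at 20 ng/ml with IL-13 at 20 ng/ml for 24 hours. The other 4 groups received the same cytokines together with an inhibitor, which was also given alone for 1 hour beforehand: tunicamycin (5 μg/ml), which blocks N-linked glycosylation in the endoplasmic reticulum (ER), Sal003 (10 μM), which keeps the translation factor eIF2α phosphorylated, or oligomycin (1 μM), which blocks the mitochondrial ATP synthase. There were 2 oligomycin groups, and in 1 of them ISRIB (1 μM), a compound that counteracts the integrated stress response, was also present. The sample labels conflict on which, so the groups are named after their libraries: the Oligo libraries had ISRIB according to their titles and not according to their library names, and the Oli_ISR libraries the reverse. Neither reading was preferred on the basis of the counts. No vehicle group was analysed here, and the 4 inhibitor comparisons have their 4 control libraries, those with IL-4/IL-13, in common.

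The depth on genes ran from 16238727 to 26725278 reads (median 18999998). Levels are given in CPM, the read count of a gene scaled to a common library size after TMM normalization, with the SD over the 4 mice, and changes as log2 fold changes with their standard error (SE) from edgeR's quasi-likelihood test. A gene "passed the test" at an adjusted *P* below 0.05 (Benjamini-Hochberg over all genes tested). In bulk RNA, fewer cells of a type and less RNA per cell cannot be told apart. The macrophage markers *Adgre1*, *Csf1r*, *Cd68*, *Itgam*, *Fcgr1* and *Mertk* summed to between 9411 and 11162 CPM in naïve macrophages, 5735 and 6914 CPM with IL-4/IL-13, 4955 and 5227 CPM in the Oligo libraries and 7340 and 8943 CPM in the other groups, and the T cell markers were at 3 counts or fewer in all of them. Of 4 neutrophil markers, *Ly6g* was at or under 3 counts throughout, and the sum of the list lay between 20.8 and 41.4 CPM in naïve macrophages, between 11.1 and 21.8 CPM with IL-4/IL-13, between 0.0513 and 0.255 CPM with tunicamycin and between 1.40 and 12.6 CPM in the other groups. The endothelial sum lay between 7.85 and 12.1 CPM in naïve macrophages, between 0.605 and 1.58 CPM with IL-4/IL-13, between 3.11 and 4.71 CPM with tunicamycin and between 7.81 and 17.5 CPM in the other groups, with *Tek* at or under 3 counts throughout. The dendritic cell sum was between 3.91 and 7.41 CPM in naïve and IL-4/IL-13 libraries and between 0.964 and 2.52 CPM with the inhibitors, and the sum for mast cells and basophils was at most 0.958 CPM. The fibroblast sum, between 3.21 and 127 CPM, and the B cell sum, at most 1.23 CPM, overlapped between IL-4/IL-13 and every other group. The part of these markers in the results below was not tested.

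Macrophages take up cholesterol with lipoproteins and dead cells. The sterol is freed in the lysosome, leaves it through NPC1, and is then either stored as cholesteryl ester, which the acyltransferases SOAT1 and SOAT2 make, or exported by the transporters ABCA1 and ABCG1 to acceptors such as apolipoprotein E. Oxysterols, which CH25H and CYP27A1 make by hydroxylating cholesterol, activate the liver X receptor LXRα (*Nr1h3*), a nuclear receptor whose classical targets in macrophages include *Abca1*, *Abcg1*, *Apoe* and *Mylip*. *Ch25h* is also known as an interferon-induced gene, and SOAT2 as the acyltransferase of intestine and liver, whereas SOAT1 is the form usual in macrophages.

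The largest changes among the 10 genes concerned *Ch25h* and *Soat2*, and the 300 bases in front of their annotated start sites are shown for that reason, from the GRCm39 assembly and read 5′ to 3′ toward the gene. *Ch25h* consists of a single exon on the minus strand at chr19:34451178-34452564, and its upstream sequence is chr19:34452565-34452864. *Soat2* lies on the plus strand at chr15:102058797-102071904 with 15 exon blocks, and its upstream sequence is chr15:102058497-102058796. Capitals mark the motif TGACGTCA, the palindromic cAMP response element that proteins of the ATF and CREB family are known to bind.
Ch25h: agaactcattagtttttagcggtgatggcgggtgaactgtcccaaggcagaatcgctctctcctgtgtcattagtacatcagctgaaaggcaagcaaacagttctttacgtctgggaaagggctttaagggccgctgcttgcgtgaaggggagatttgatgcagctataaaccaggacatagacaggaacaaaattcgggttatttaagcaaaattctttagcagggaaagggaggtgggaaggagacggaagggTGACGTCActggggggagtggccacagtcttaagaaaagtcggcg
Soat2: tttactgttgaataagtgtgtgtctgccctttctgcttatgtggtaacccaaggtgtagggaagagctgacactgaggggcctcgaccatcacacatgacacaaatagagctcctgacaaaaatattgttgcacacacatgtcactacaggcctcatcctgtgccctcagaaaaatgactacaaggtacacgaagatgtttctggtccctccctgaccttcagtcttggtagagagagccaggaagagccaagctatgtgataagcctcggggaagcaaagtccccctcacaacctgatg

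The capitals in the *Ch25h* sequence stand 45 to 38 bases before the start, and 381 of 21770 protein-coding genes (1.75%) had this motif in the same window. A further 7 motifs were searched on both strands in the same window for all 10 genes: TGATGNAA for the CHOP and ATF4 type (4.07% of all promoters), the ER stress element, CCAAT and CCACG with any 9 bases between them (0.115%), GAAA and again GAAA with any 2 bases between for the interferon-stimulated response element (4.07%), TTC and GAA with any 4 bases between for the STAT6 type (7.40%), the LXR direct repeat, AGGTCA and again AGGTCA with any 4 bases between (0 promoters), TCACNCCAC for the sterol regulatory element (1.25%) and the E-box CACGTG (6.95%). None of the 8 was in the *Soat2* window. Among the other genes, *Cyp27a1* held the interferon-type and E-box letters, *Abca1* an E-box and *Apoe* and *Npc1* the STAT6-type letters. These matches describe the letters in these windows only.

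**Figure D1:**
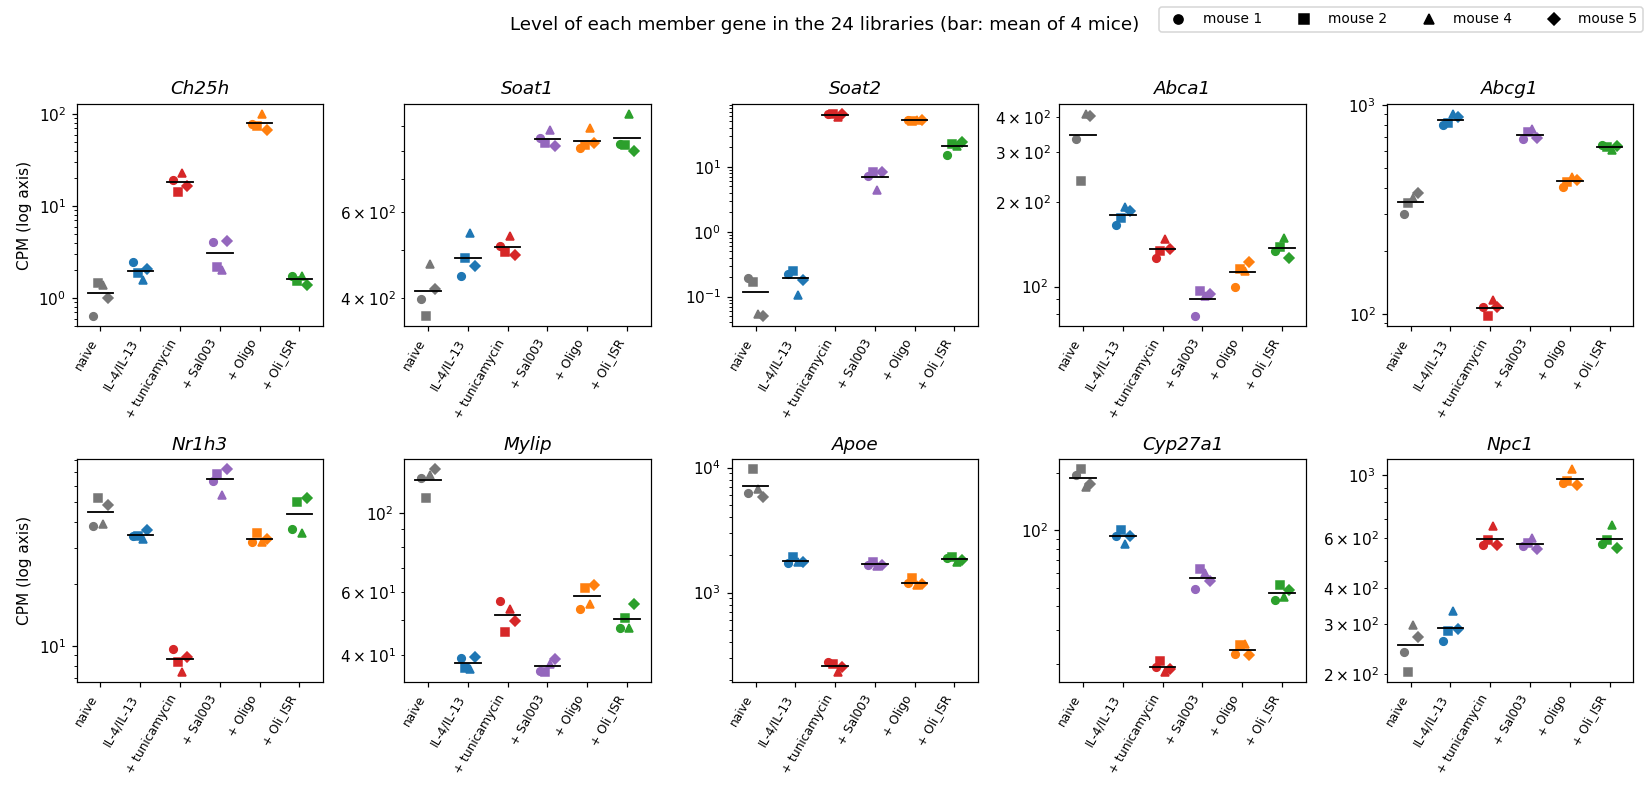
Level of each of the 10 genes (CPM, logarithmic axis, with its own range in each panel) in the 6 conditions, each point 1 library, its shape the mouse, and the bar the mean of 4 mice. *Ch25h* stands at a mean of 80.0 CPM in the Oligo libraries and 1.61 CPM in the Oli_ISR libraries, and *Soat2* goes from 0.191 CPM with IL-4/IL-13 to 63.8 CPM with tunicamycin.

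The first comparison asked how IL-4/IL-13 changed these genes. The cytokines raised *Abcg1*, *Soat1*, *Ch25h* and *Npc1* and lowered *Apoe*, *Mylip*, *Cyp27a1*, *Abca1* and *Nr1h3*, so that 9 of 10 passed the test where 60.5% of all genes did. The 4 higher and 5 lower stand beside 30.1% and 30.4% of all genes. *Apoe* and *Mylip* fell by more than 2.5-fold, as did 6.08% of all genes, and 0 of the 10 rose that far, as did 5.39%. The median log2 fold change of the 10 genes was -0.08, and that of all genes tested was -0.02.

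*Abcg1*, which exports cholesterol to high-density lipoprotein, was the member that rose most with IL-4/IL-13. Its level was 302, 339, 359 and 378 CPM in naïve macrophages of mice 1, 2, 4 and 5, and 801, 815, 907 and 875 CPM in their IL-4/IL-13 libraries. Every IL-4/IL-13 library was above every naïve one, and the log2 fold change was 1.30 (SE 0.06, adjusted *P* = 3.05e-15 by edgeR's quasi-likelihood test). *Abca1*, which loads lipid-poor apolipoproteins, went the other way. It stood at 334, 237, 411 and 402 CPM in naïve macrophages and at 165, 175, 191 and 185 CPM with IL-4/IL-13. The groups did not overlap, although the naïve library of mouse 2 was well below the other 3, and *Abca1* fell by 0.95 on the log2 scale (SE 0.11, adjusted *P* = 6.55e-08, edgeR).

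Compared per kilobase of exon, the only scale on which levels of different genes were set side by side, *Abcg1* made up 61.7 ± 5.26% of the summed *Abca1* and *Abcg1* reads in naïve macrophages and 88.3 ± 0.187% with IL-4/IL-13 (SD, n = 4). With tunicamycin the share was 55.7 ± 1.55%, and with Sal003 92.7 ± 0.511%. The Oligo and Oli_ISR libraries gave 85.9 ± 0.751% and 88.0 ± 0.944%. The tunicamycin libraries did not overlap with those of any other group.

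*Apoe*, the apolipoprotein secreted by macrophages as an acceptor of cholesterol, was the most abundant of the 10 genes per kilobase in every condition. Its naïve libraries held 6247, 9726, 6782 and 5772 CPM, and the IL-4/IL-13 libraries 1716, 1933, 1773 and 1741 CPM. All 4 mice were lower with the cytokines, and *Apoe* fell by 1.99 on the log2 scale (SE 0.10, adjusted *P* = 1.72e-14, edgeR). *Mylip* encodes IDOL, a ubiquitin ligase that acts in lipoprotein uptake, and fell from between 110 and 133 CPM to between 36.5 and 39.5 CPM. The log2 fold change was -1.71 (SE 0.07, adjusted *P* = 9.50e-17 by edgeR), again with no overlap.

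*Cyp27a1*, the mitochondrial sterol 27-hydroxylase, stood at 195, 209, 169 and 174 CPM without stimulation and at 93.0, 100.4, 85.1 and 93.9 CPM with the cytokines. The level was lower in all 4 mice, with a log2 fold change of -1.01 (SE 0.07, adjusted *P* = 1.56e-11, edgeR). *Nr1h3* itself changed little, from 44.7 ± 7.09 to 34.6 ± 1.50 CPM (SD, n = 4). The log2 fold change of -0.37 passed edgeR's test (adjusted *P* = 0.00854), but not without mouse 2 (-0.28, adjusted *P* = 0.0859).

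The other 3 increases with IL-4/IL-13 were small. *Soat1* went from 412 ± 42.6 to 484 ± 43.4 CPM (log2 fold change 0.23, SE 0.07, edgeR adjusted *P* = 0.00535), with overlapping groups, and without mouse 2 the adjusted *P* was 0.0651. *Npc1* went from 253 ± 40.5 to 292 ± 30.8 CPM, also with overlap, and its adjusted *P* of 0.0497 by edgeR ranged up to 0.264 among the alternatives, of which 6 did not pass the threshold. *Ch25h* was low in both groups, at 13, 26, 26 and 20 reads in naïve and 44, 37, 30 and 34 reads in IL-4/IL-13 libraries. Its log2 fold change was 0.83 (SE 0.33, adjusted *P* = 0.0337, edgeR), and without mouse 1 it was 0.52 (adjusted *P* = 0.268). *Soat2* was at 1 to 4 reads per naïve library and 2 to 5 reads per IL-4/IL-13 library, and at this depth no change was detectable (edgeR adjusted *P* = 0.471).

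**Figure D2:**
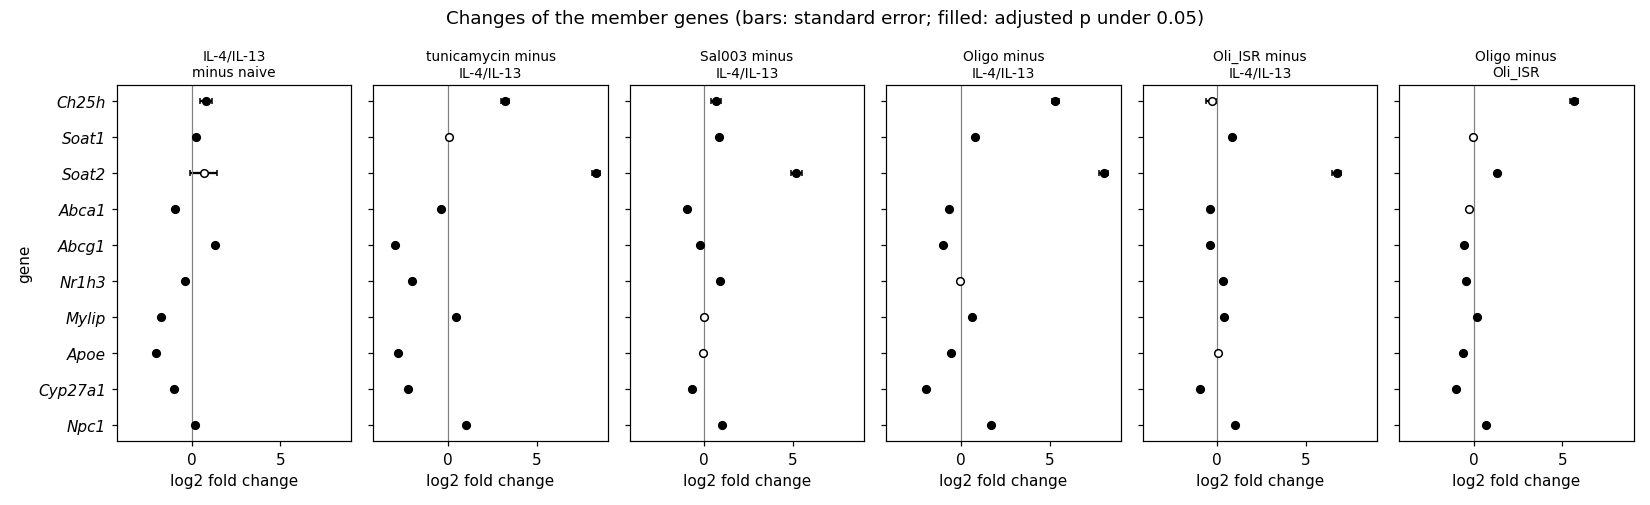
Log2 fold change of each of the 10 genes in the 6 main comparisons, with the standard error as a bar and a filled point where the adjusted *P* of edgeR's test was below 0.05. With tunicamycin *Abcg1*, *Apoe*, *Cyp27a1* and *Nr1h3* fell by at least 2.01 on the log2 scale, and *Soat2* rose with all 4 inhibitors.

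The next comparisons asked what each inhibitor added to IL-4/IL-13. Tunicamycin moved 9 of the 10 genes past the test (4 higher and 5 lower), against 76.3% of all genes (38.7% higher and 37.6% lower). At least 2.5-fold, 2 rose and 4 fell, against 8.56% and 14.0% of all genes. The members' median log2 fold change was -0.17, beside 0.01 for all genes. *Soat2*, *Ch25h*, *Npc1* and *Mylip* were higher, *Abcg1*, *Apoe*, *Cyp27a1*, *Nr1h3* and *Abca1* were lower, and *Soat1* did not pass the test (508 ± 20.8 against 484 ± 43.4 CPM, edgeR adjusted *P* = 0.350).

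*Soat2* was nearly without reads before tunicamycin. The IL-4/IL-13 libraries of mice 1, 2, 4 and 5 had 4, 5, 2 and 3 reads on it, and the tunicamycin libraries 1264, 1372, 1045 and 1291. The pooled reads, set against library size, differed 335-fold (95% exact interval 199 to 613, which covers counting error only). The tunicamycin libraries lay between 59.3 and 65.8 CPM, and each was above the *Soat2* level of every other library in the experiment. The fitted log2 fold change, which at so few reads depends on the prior count, was 8.34 (SE 0.23, adjusted *P* = 9.36e-21 by edgeR).

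As a share of the summed *Soat1* and *Soat2* reads per kilobase, *Soat2* made up 0.133 ± 0.0936% in naïve macrophages and 0.181 ± 0.0674% with IL-4/IL-13 (SD, n = 4). With tunicamycin it reached 36.1 ± 2.01%. It was 3.63 ± 1.04% with Sal003, 21.8 ± 0.691% in the Oligo libraries and 9.94 ± 1.90% in the Oli_ISR libraries. *Soat1* therefore remained the more abundant acyltransferase transcript in all 6 groups, and the ranges of the 4 inhibitor groups did not overlap.

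**Figure D3:**
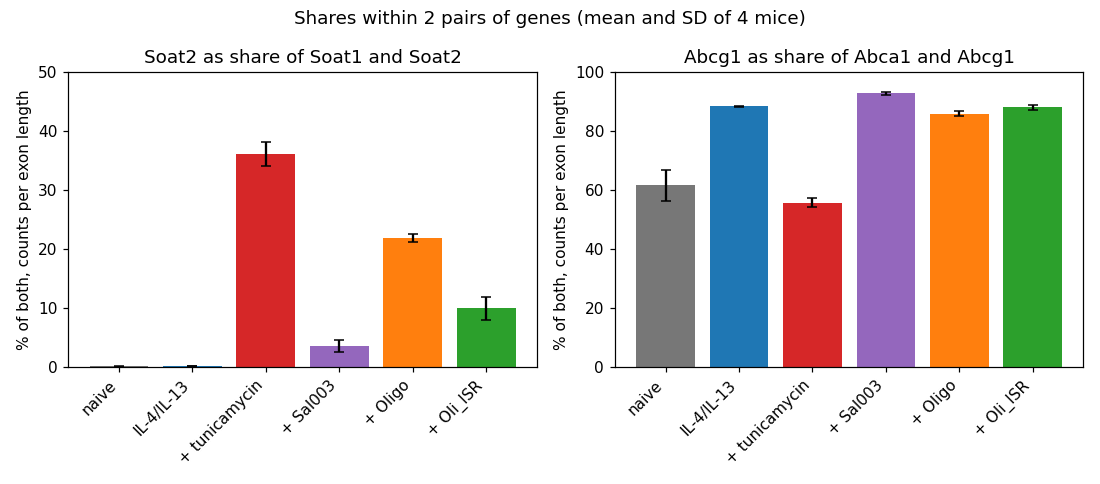
Share of *Soat2* in the summed reads of *Soat1* and *Soat2* (left) and of *Abcg1* in those of *Abca1* and *Abcg1* (right), in percent of reads per kilobase of exon, as bars from 0 with the mean and SD of 4 mice. The *Soat2* share is highest with tunicamycin (36.1%), the condition in which the *Abcg1* share is lowest (55.7%).

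The transporters and the carrier fell with tunicamycin. *Abcg1* stood at 107, 97.3, 117 and 108 CPM in mice 1, 2, 4 and 5, below every naïve library as well as every IL-4/IL-13 library. Against IL-4/IL-13 the log2 fold change was -2.99 (SE 0.07, adjusted *P* = 2.03e-22, edgeR), and against naïve macrophages it was -1.68 (SE 0.06, adjusted *P* = 9.28e-18, edgeR). *Apoe* was reduced to 278, 267, 233 and 254 CPM, a log2 fold change of -2.80 (SE 0.11, adjusted *P* = 1.06e-17, edgeR) on top of its decrease with the cytokines, and against naïve macrophages it fell by 4.79 on the log2 scale. *Abca1* changed less, from 179 ± 11.5 to 136 ± 8.73 CPM (log2 fold change -0.40, SE 0.11, edgeR adjusted *P* = 0.00254), and the groups did not overlap.

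*Nr1h3* and *Cyp27a1* were lowest with tunicamycin. The *Nr1h3* level was 9.70, 8.38, 7.49 and 8.81 CPM, and in the IL-4/IL-13 libraries it was 34.3, 34.3, 33.2 and 36.7 CPM. The decrease of 2.01 on the log2 scale (SE 0.14, adjusted *P* = 1.01e-12, edgeR) held in 4 of 4 mice. *Cyp27a1* fell to 19.3 ± 1.11 CPM (log2 fold change -2.27, SE 0.08, edgeR adjusted *P* = 3.79e-18). *Ch25h*, *Npc1* and *Mylip* rose, *Npc1* to 568, 593, 662 and 569 CPM (log2 fold change 1.03, SE 0.09) and *Mylip* to 51.7 ± 4.53 CPM, still below every naïve library. Both passed edgeR's test (adjusted *P* = 1.08e-10 and 3.34e-06).

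With Sal003, 5 of the 10 genes rose and 3 fell relative to IL-4/IL-13, against 50.6% of all genes past the test (25.9% higher and 24.6% lower). Only *Soat2* rose by at least 2.5-fold, as did 2.68% of all genes, and none of the 10 fell that far, as did 5.04%. The median log2 fold change was 0.32 for the members and 0.00 for all genes. *Apoe* (1683 ± 61.8 CPM) and *Mylip* (37.2 ± 1.47 CPM) did not pass the test, with log2 fold changes of -0.09 (SE 0.10, edgeR adjusted *P* = 0.483) and -0.03 (SE 0.07, adjusted *P* = 0.744). *Nr1h3* reached its highest level of the 6 groups, at 63.8, 68.7, 54.2 and 72.6 CPM. This was above all IL-4/IL-13 libraries and above all naïve ones, and the log2 fold change against IL-4/IL-13 was 0.91 (SE 0.11, adjusted *P* = 3.42e-07, edgeR).

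The transporter genes, which are LXR targets, were lower with Sal003 while *Nr1h3* was higher. *Abca1* was at its lowest there, at 78.4, 96.4, 92.6 and 94.4 CPM, a log2 fold change of -0.99 (SE 0.11, adjusted *P* = 8.54e-08, edgeR) with no overlap with IL-4/IL-13. *Abcg1* was lower in 4 of 4 mice by a small amount (721 ± 39.2 CPM, log2 fold change -0.24, SE 0.06, edgeR adjusted *P* = 0.00222). *Cyp27a1* fell by 0.72 on the log2 scale (SE 0.08, edgeR adjusted *P* = 1.99e-08) to between 49.4 and 62.7 CPM.

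*Soat1* and *Npc1*, which act on storage and on lysosomal export, both rose with Sal003. *Soat1* stood at 849, 829, 883 and 818 CPM (log2 fold change 0.80, SE 0.07, edgeR adjusted *P* = 3.78e-10), and *Npc1* at 561, 576, 598 and 548 CPM (log2 fold change 0.97, SE 0.09, edgeR adjusted *P* = 1.56e-09). Neither overlapped with the IL-4/IL-13 libraries. *Soat2* had 137, 148, 77 and 163 reads, 37.1 times the pooled IL-4/IL-13 reads for their library size (95% exact interval 21.9 to 68.3, counting error only). *Ch25h* had 78, 39, 36 and 81 reads against 44, 37, 30 and 34, and overlapped. Its log2 fold change of 0.67 (SE 0.27, edgeR adjusted *P* = 0.0448) did not pass under 6 of the alternatives, with adjusted *P* up to 0.234.

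In the Oligo libraries, 5 of the 10 genes were higher and 4 lower than with IL-4/IL-13, against 66.2% of all genes past the test (34.0% higher and 32.2% lower). At least 2.5-fold, 3 rose and 1 fell, against 4.79% and 7.96% of all genes. The members' median log2 fold change was 0.28, beside 0.01 for all genes. The reads of *Ch25h* were 1654, 1571, 1931 and 1334 in mice 1, 2, 4 and 5, which is 78.3, 73.9, 101.1 and 66.7 CPM. Every other library of the experiment was at or below 22.9 CPM. The log2 fold change against IL-4/IL-13 was 5.33 (SE 0.20, adjusted *P* = 1.99e-17, edgeR), and the difference from tunicamycin, in which *Ch25h* was at 19.4, 14.1, 22.9 and 16.8 CPM, was itself past the test (log2 fold change of tunicamycin minus Oligo -2.13, SE 0.15, edgeR adjusted *P* = 3.49e-12).

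*Soat2* and *Npc1* were also high in the Oligo libraries. *Soat2* lay between 50.3 and 52.6 CPM, 272 times the pooled IL-4/IL-13 reads for their library size (95% exact interval 162 to 497, counting error only). *Npc1* reached its highest level of all groups, at 935, 947, 1046 and 920 CPM, above every library of the other 5 groups (log2 fold change 1.72, SE 0.09, edgeR adjusted *P* = 1.49e-14). *Soat1* was at 838 ± 35.6 CPM, where the difference from Sal003 was -0.01 on the log2 scale (SE 0.07, edgeR adjusted *P* = 0.901).

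Among the genes that were lower in the Oligo libraries, *Cyp27a1* fell most. It was at 22.6, 25.1, 25.3 and 22.2 CPM, below every IL-4/IL-13 library by a log2 fold change of -1.97 (SE 0.08, edgeR adjusted *P* = 1.45e-16). *Abcg1* fell to 430 ± 18.5 CPM (log2 fold change -0.98, SE 0.06), *Abca1* to 113 ± 9.51 CPM (-0.67, SE 0.11) and *Apoe* to 1202 ± 69.6 CPM (-0.58, SE 0.10), each without overlap with IL-4/IL-13 and past edgeR's test (adjusted *P* = 5.34e-13, 1.25e-05 and 2.03e-05). *Mylip* rose to 58.6 ± 4.43 CPM (0.63, SE 0.07, edgeR adjusted *P* = 1.82e-08), and *Nr1h3* at 33.2 ± 1.50 CPM was not distinguished from IL-4/IL-13 (-0.06, SE 0.12, edgeR adjusted *P* = 0.682).

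In the Oli_ISR libraries 5 members were higher and 3 lower than with IL-4/IL-13, where 54.3% of all genes passed the test (27.9% higher and 26.4% lower). By at least 2.5-fold only *Soat2* rose and none fell, against 2.94% and 5.02% of all genes. The median log2 fold change was 0.19 for the members and 0.00 for all genes. *Ch25h* was not raised. It had 32, 28, 31 and 36 reads, or 1.73, 1.54, 1.75 and 1.39 CPM, overlapping with the IL-4/IL-13 libraries (log2 fold change -0.32, SE 0.31, edgeR adjusted *P* = 0.403). *Soat2* was raised, at 283, 413, 375 and 620 reads, 110 times the pooled IL-4/IL-13 reads for their library size (95% exact interval 65.6 to 202, counting error only).

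*Soat1* (850 ± 69.4 CPM, log2 fold change 0.81, SE 0.07) and *Npc1* (594 ± 49.1 CPM, 1.03, SE 0.09) rose as well, past edgeR's test with adjusted *P* = 2.68e-10 and 4.66e-10. *Cyp27a1* fell to 47.2 ± 3.94 CPM (-0.98, SE 0.08, edgeR adjusted *P* = 8.74e-11). Of the efflux genes, *Abcg1* was at 630 ± 14.3 CPM (-0.43), *Abca1* at 137 ± 9.21 CPM (-0.39) and *Apoe* at 1843 ± 72.1 CPM (0.04), of which the first 2 passed edgeR's test (adjusted *P* = 1.79e-06 and 0.00497) and *Apoe* did not (adjusted *P* = 0.753). *Mylip* rose by 0.41 (edgeR adjusted *P* = 2.20e-05). *Nr1h3* rose by 0.35 (edgeR adjusted *P* = 0.0140), with overlap, and not past the test without mouse 2 or without mouse 5 (adjusted *P* = 0.0950 and 0.115).

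The Oligo and Oli_ISR libraries, which differ by ISRIB, were then compared with each other. Of the 10 genes, 4 were higher and 4 lower in the Oligo libraries, against 41.2% of all genes past the test (19.9% higher and 21.3% lower). Only *Ch25h* differed by at least 2.5-fold, in a direction in which 1.14% of all genes did, and none was lower by as much, against 1.48%. The members had a median log2 fold change of -0.15 beside -0.00 for all genes. *Ch25h* was 5.65 higher on the log2 scale (SE 0.20, adjusted *P* = 2.02e-16, edgeR), in 4 of 4 mice and within a range of 5.42 to 5.77 from mouse to mouse. *Soat2* was higher by 1.31 (SE 0.11, edgeR adjusted *P* = 1.08e-09), *Npc1* by 0.70 (SE 0.09, adjusted *P* = 5.83e-07) and *Mylip* by 0.22 (SE 0.07, adjusted *P* = 0.0123), the last with overlap and not without mouse 4 (adjusted *P* = 0.0563).

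*Cyp27a1* (-0.99), *Apoe* (-0.62), *Abcg1* (-0.55) and *Nr1h3* (-0.41) were lower in the Oligo than in the Oli_ISR libraries, with edgeR adjusted *P* of 5.71e-10, 2.19e-05, 8.09e-08 and 0.00641. Only the *Nr1h3* groups overlapped, and its difference did not pass without mouse 5 (-0.29, adjusted *P* = 0.0938). *Soat1* did not differ past the test (-0.02, SE 0.07, edgeR adjusted *P* = 0.849). *Abca1* was lower in 4 of 4 mice by 0.28 on the log2 scale (SE 0.11) and narrowly missed the threshold (edgeR adjusted *P* = 0.0525); with the mouse as a replicate block it passed (-0.28, adjusted *P* = 0.0213).

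The order of the 6 groups differed from gene to gene. In the comparisons that this order adds, the share of all genes past edgeR's test was 77.6% for tunicamycin against naïve, 63.8% for Oli_ISR against naïve, 71.9%, 63.5% and 71.1% for tunicamycin against Sal003, Oligo and Oli_ISR, 51.5% for Oligo against Sal003 and 18.5% for Oli_ISR against Sal003. *Ch25h* ran from Oligo through tunicamycin and Sal003 to IL-4/IL-13, Oli_ISR and naïve, where the step from IL-4/IL-13 to Oli_ISR and that from Oli_ISR to naïve did not pass edgeR's test (adjusted *P* = 0.403 and 0.192). *Soat2* ran from tunicamycin through Oligo, Oli_ISR and Sal003 to IL-4/IL-13 and naïve, and only its last step did not pass. *Soat1* formed an upper set of Oli_ISR, Sal003 and Oligo and a lower set of tunicamycin, IL-4/IL-13 and naïve, and for *Npc1* Oligo stood above tunicamycin, Oli_ISR and Sal003, which were not distinguished from each other. *Cyp27a1* differed at each step, from naïve through IL-4/IL-13, Sal003, Oli_ISR and Oligo to tunicamycin.

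Because *Ch25h* is induced by interferon, 13 interferon-type genes were set beside it. With IL-4/IL-13, 12 of the 13 fell, against 30.4% of all genes, and 1 did not pass the test, while *Ch25h* rose slightly. Sal003 raised 12 of 13 (median log2 fold change 4.23, 25.9% of all genes higher), the Oligo libraries had all 13 higher (median 3.42, 34.0% of all genes), and so did the Oli_ISR libraries (median 4.32, 27.9% of all genes). In the Oligo libraries 4 of 13 were lower than in the Oli_ISR libraries and none was higher, against 21.3% and 19.9% of all genes. *Ch25h* differed by 5.65 in this pair of conditions. The 13 genes were chosen with earlier results known, and the part of interferon in the *Ch25h* changes was not tested. *Irf7*, a transcription factor of the interferon response, was at 31.6 ± 5.02 CPM with IL-4/IL-13 and at 26.2 ± 1.93 CPM with tunicamycin, at 337 ± 44.9 CPM in the Oligo and at 652 ± 298 CPM in the Oli_ISR libraries.

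Tunicamycin gave a mixed picture, with 6 of the 13 interferon-type genes higher and 5 lower, against 38.7% and 37.6% of all genes. The chemokine gene *Cxcl10* rose by 4.51 (SE 0.38, edgeR adjusted *P* = 5.63e-11). Of 7 regulators known from stress and Toll-like receptor signaling, 3 rose and 3 fell with tunicamycin, against 38.7% and 37.6% of all genes. With Sal003 3 rose and 3 fell (25.9% and 24.6% of all genes). In the Oligo libraries 3 rose and 2 fell (34.0% and 32.2%), and in the Oli_ISR libraries 3 rose and 3 fell (27.9% and 26.4%). *Ddit3*, which encodes CHOP, and *Atf4* were among those higher with all 4 inhibitors. *Ddit3* rose by 4.21 with tunicamycin, 0.97 with Sal003, 2.80 in the Oligo and 1.93 in the Oli_ISR libraries (edgeR adjusted *P* at most 5.13e-08). The symbol *Ddit3* belongs to 2 identifiers. Only 1 of them was used, and 82.4% of its exon length is shared with other genes. Of the 7 regulators, 3 were higher and 2 lower in the Oligo than in the Oli_ISR libraries, against 19.9% and 21.3% of all genes. Between these libraries *Ddit3* differed by 0.88 and *Atf4* by 0.56 on the log2 scale.

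**Figure D4:**
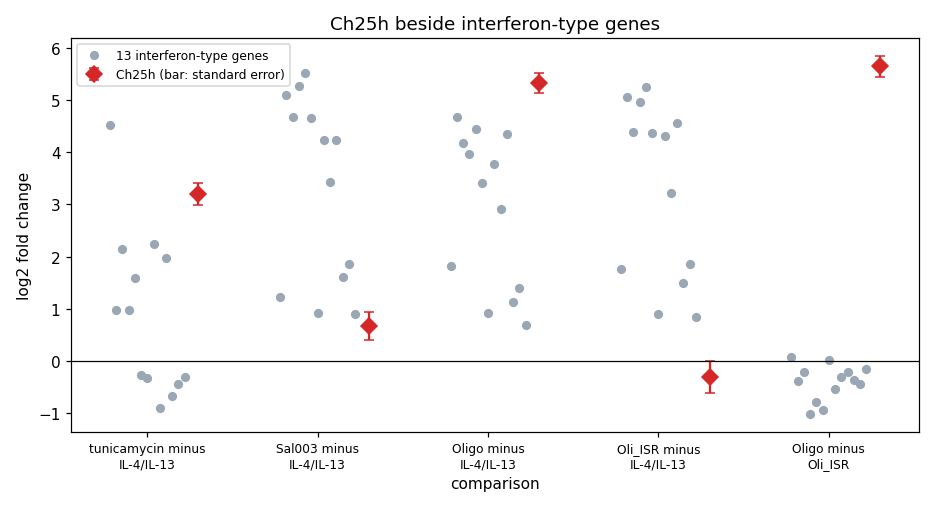
Log2 fold change of 13 interferon-type genes (grey points, each 1 gene) and of *Ch25h* (red, with its standard error) in 5 comparisons. With Sal003 and in the Oli_ISR libraries the interferon-type genes were raised, and *Ch25h* was at 0.67 and -0.32. Between the Oligo and Oli_ISR libraries *Ch25h* alone stood far above 0. The part of interferon in these values was not tested.

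The *Ch25h* exon is covered to 50.3% by the annotated antisense transcript *Gm26902*, and the sources used here do not give the strand setting used to count reads, so those of the pair cannot be told apart where they overlap. *Gm26902* was likewise highest in the Oligo libraries, with a mean of 1.24 CPM, and next with tunicamycin, at 0.850 CPM, followed by 0.211 CPM with Sal003, 0.150 CPM in naïve macrophages, 0.111 CPM with IL-4/IL-13 and 0.0614 CPM in the Oli_ISR libraries. In the last 4 groups it had at most 7 reads in any library. The nearest protein-coding gene on the side of the promoter is *Lipa*, the lysosomal acid lipase that frees cholesterol from its esters, 17148 bp away. *Lipa* fell by 0.47 in the Oligo libraries (SE 0.07, edgeR adjusted *P* = 3.16e-06). *Fas*, the death receptor gene on the other side at 146005 bp, rose by 0.40 there and by 3.45 with tunicamycin. *Igfbp6*, which ends 844 bp before *Soat2*, was at 0 in the naïve libraries and 0.0683 CPM with IL-4/IL-13, and rose with all 4 inhibitors, to 1.71 CPM with tunicamycin.

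Over the 24 libraries, which share 4 mice and 6 conditions, the genes most like *Ch25h* in log2 CPM were *Dlg2* (Pearson *r* = 0.96), *Rhot1* (0.94) and *Gas5* (0.94), among 11852 genes with a mean of at least 1 CPM. *Dlg2* had few reads, with group means of 3.73 CPM in Oligo, 2.12 CPM with tunicamycin and at most 0.228 CPM elsewhere. *Rhot1* encodes a mitochondrial GTPase that tethers mitochondria to motor proteins, and *Gas5* is a noncoding RNA that hosts snoRNAs. Closest to *Soat2* were *Gm50143* (0.99), the asparagine synthetase gene *Asns* (0.99) and the pseudokinase gene *Trib3* (0.98). *Gm50143* was low as well, with group means from 0.183 CPM in naïve macrophages to 3.23 CPM with tunicamycin. *Trib3* went from 3.55 CPM with IL-4/IL-13 to 835 CPM with tunicamycin, 33.8 CPM with Sal003, 542 CPM in the Oligo and 146 CPM in the Oli_ISR libraries.

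The genes most like *Abcg1* were *Actn1*, *Steap3* and *Asb4* (each 0.99), and those most like *Cyp27a1* were *Dpysl2*, *Abtb1* and *Rogdi* (each 0.99). *Npc1* was followed most closely by *Plek* (0.99), *Azin1* (0.98) and *Plxna1* (0.97), and *Soat1* by *Erap1*, *Naglu* and *Abhd5* (each 0.97), of which *Naglu* encodes a lysosomal enzyme and *Abhd5* the activator of the lipase ATGL. For *Nr1h3* they were *Nherf1*, *Mov10* and *Mocos* (each 0.98), for *Apoe* *Mtmr11*, *Fmnl3* and *Nudt13* (each 0.98), for *Abca1* *Heca* (0.96), *Eps15* (0.95) and the iron exporter gene *Slc40a1* (0.94), and for *Mylip* *Pcbp4*, *Dgkd* (each 0.95) and *Nuak1* (0.94). Among the 10 genes themselves, *Soat2* ran most strongly against *Cyp27a1* (-0.94) and with *Npc1* (0.91), and *Apoe* with *Cyp27a1* (0.88).

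The partners of these genes were followed by lists of pathway genes that were likewise chosen with earlier results known. *Rxra*, which encodes the LXR partner RXRα, fell by 1.49 with tunicamycin (SE 0.06, edgeR adjusted *P* = 1.08e-17), while *Nr1h2*, which encodes LXRβ, fell by 0.15. Of 9 other LXR targets, 7 fell and 2 rose with tunicamycin, against 37.6% and 38.7% of all genes (median log2 fold change of the targets -0.80). In the Oligo libraries 6 fell and 3 rose, against 32.2% and 34.0% (median -0.50). With Sal003 5 fell and 2 rose (24.6% and 25.9% of all genes), as they did in the Oli_ISR libraries (26.4% and 27.9%). With IL-4/IL-13 against naïve, 5 fell and 3 rose (30.4% and 30.1%, median -0.59).

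The targets did not move as a block. *Smpdl3a*, a secreted phosphodiesterase, rose by 1.21 with Sal003, 1.33 in the Oligo and 1.06 in the Oli_ISR libraries (edgeR adjusted *P* at most 9.68e-12). *Cd5l*, which encodes the apoptosis inhibitor AIM, fell by 1.80 with IL-4/IL-13 and rose by 1.59 with tunicamycin, the reverse of *Abcg1*. *Mertk*, a receptor for dead cells, fell by 1.06 with IL-4/IL-13, by another 1.80 with tunicamycin and by 1.24 in the Oligo libraries.

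The 8 other lipid transporter genes, which are members of the ABCA and ABCG families and the HDL receptor gene *Scarb1*, were followed in the same way. With IL-4/IL-13 against naïve, 3 fell and 3 rose, against 30.4% and 30.1% of all genes. With tunicamycin 7 fell, against 37.6% of all genes, with Sal003 4 (24.6%), in the Oligo libraries 7 (32.2%) and in the Oli_ISR libraries 5 (26.4%). With tunicamycin 1 rose, against 38.7% of all genes, with Sal003 0 (25.9%), in the Oligo libraries 1 (34.0%) and in the Oli_ISR libraries 1 (27.9%). *Abcg3* fell by 3.85 with tunicamycin and 3.25 in the Oligo libraries, and *Abca9* fell by 3.02 in the Oligo libraries (edgeR adjusted *P* at most 1.30e-14). The transporter gene *Abcg4* had no more than 6 reads in any library.

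Beside *Npc1*, 17 genes of lysosomal and nonvesicular sterol transport were tested. With Sal003 9 rose and 3 fell, against 25.9% and 24.6% of all genes. In the Oligo libraries 10 rose and 3 fell, against 34.0% and 32.2%. In the Oli_ISR libraries 10 rose and 4 fell, against 27.9% and 26.4%. With tunicamycin 8 rose and 8 fell, close to the 38.7% and 37.6% of all genes. *Npc2*, whose product hands cholesterol to NPC1 in the lysosome, fell by 1.84 with tunicamycin (SE 0.07, edgeR adjusted *P* = 2.30e-17), where *Npc1* rose by 1.03, and rose by 1.08 with Sal003 and 0.97 in the Oli_ISR libraries. *Gramd1b*, which encodes the Aster-B carrier of cholesterol from the plasma membrane to the ER, rose from 55.6 ± 1.06 to 308 ± 4.34 CPM with tunicamycin (log2 fold change 2.47, SE 0.06, edgeR adjusted *P* = 5.37e-22) and to 109 ± 2.08 CPM in the Oligo libraries.

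**Figure D5:**
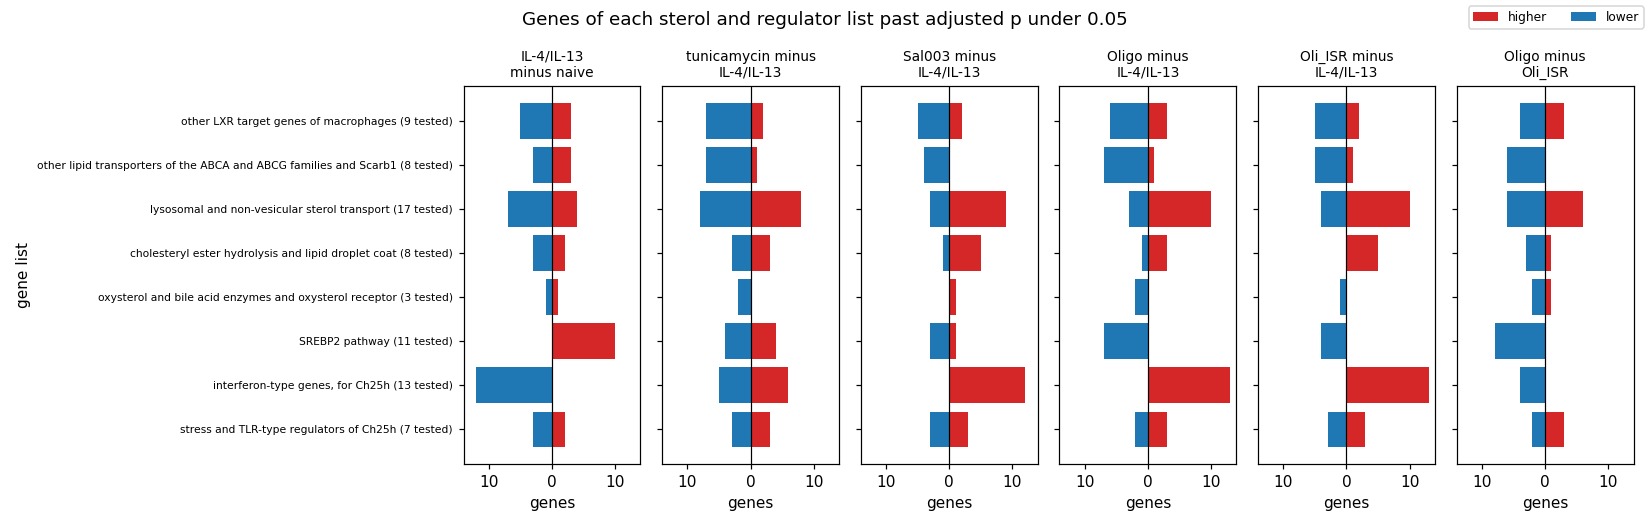
Number of genes of each list that were higher (red, to the right) or lower (blue, to the left) at an adjusted *P* below 0.05 by edgeR, in the 6 main comparisons, with the number tested in brackets. The SREBP2 list has 10 of 11 genes higher with IL-4/IL-13, and the interferon-type list has 12 of 13 lower.

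For cholesteryl esters, 8 genes of ester hydrolysis and the lipid droplet coat were tested beside *Soat1* and *Soat2*. With Sal003 5 rose and 1 fell, against 25.9% and 24.6% of all genes. In the Oli_ISR libraries 5 rose and none fell, against 27.9% and 26.4%. In the Oligo libraries 3 rose and 1 fell (34.0% higher and 32.2% lower), and with tunicamycin 3 rose and 3 fell (38.7% higher and 37.6% lower). *Plin2*, the coat protein of lipid droplets, was at 751 ± 20.0 CPM with IL-4/IL-13, 1461 ± 106 CPM with Sal003, 1487 ± 34.6 CPM in the Oligo and 606 ± 24.5 CPM in the tunicamycin libraries. *Nceh1*, a neutral cholesteryl ester hydrolase, rose by 0.75 with Sal003, 0.86 in the Oligo and 0.92 in the Oli_ISR libraries, but not past the test with tunicamycin (-0.06, SE 0.07, edgeR adjusted *P* = 0.395). *Soat1* likewise rose in those 3 groups and not with tunicamycin.

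Of 10 genes for other oxysterol and bile acid enzymes and for the oxysterol receptor, 3 had enough reads to be tested. *Cyp7b1*, the next enzyme after CH25H on the way to 7α,25-dihydroxycholesterol, had at most 4 reads in any library. *Gpr183*, which encodes the EBI2 receptor for that oxysterol, fell by 2.26 with tunicamycin (SE 0.10, edgeR adjusted *P* = 2.81e-16) and by 0.63 in the Oligo libraries (SE 0.09, adjusted *P* = 7.22e-07), the conditions in which *Ch25h* was raised most, and rose by 0.52 with Sal003 (SE 0.08, adjusted *P* = 1.08e-05).

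Of 11 genes of the SREBP2 pathway, which makes cholesterol when the ER runs low in it, 10 rose with IL-4/IL-13 and none fell. This stands against 30.1% and 30.4% of all genes (median log2 fold change of the list 0.61). In the Oligo libraries 7 fell and none rose, against 32.2% and 34.0% of all genes (median -0.27). In the Oli_ISR libraries 4 fell and none rose (26.4% and 27.9%, median 0.01), and with Sal003 3 fell and 1 rose (24.6% and 25.9%). Between the oligomycin groups 8 were lower in the Oligo than in the Oli_ISR libraries and none was higher, against 21.3% and 19.9% of all genes. With tunicamycin 4 rose and 4 fell, near the share of all genes (median 0.00), with *Srebf2* itself lower by 1.05 (SE 0.07, edgeR adjusted *P* = 1.33e-12).

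A further 4 of the genes share exon sequence with genes on the other strand. *Cyp27a1* (chr1:74752314-74777056, plus strand) overlaps *Prkag3* over 32.8% of its exon length, *Apoe* (chr7:19430034-19434947, minus strand) overlaps the long noncoding RNA *Gm71725* over 12.9%, *Npc1* (chr18:12322749-12369550, minus strand) overlaps *Rmc1* over 9.5%, and *Nr1h3* (chr2:91014394-91033417, minus strand) overlaps *Acp2* over 5.1%. *Prkag3* had at most 1 read in any library, and *Gm71725* was not among the genes counted. *Rmc1* fell with all 4 inhibitors, where *Npc1* rose. *Acp2* moved with *Nr1h3* in part, at 344 ± 17.2 CPM in naïve macrophages, 151 ± 9.41 CPM with IL-4/IL-13, 274 ± 23.1 CPM with Sal003 and 210 ± 9.88 CPM with tunicamycin, and its part in the *Nr1h3* values was not tested. *Soat1* (chr1:156252095-156303864, minus strand) shares 0.9% of its exon length with other genes. *Abca1* (chr4:53030787-53159900, minus strand), *Abcg1* (chr17:31276649-31336969, plus strand) and *Mylip* (chr13:45543215-45565501, plus strand) share none.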

How the data were processed

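RNA-seq was analysed from BMDM of 4 mice in 6 conditions (24 libraries), grouped by their replicate labels. For 8 oligomycin libraries the titles contradict the library names on ISRIB, and both readings were kept. The 10 genes, the pathway lists, the markers and the tests were chosen with earlier results of these data known. The results of 2 further pathway lists are not reported here.

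The authors trimmed single reads of 150 bases (Cutadapt 1.8), filtered out ribosomal and low-complexity reads, aligned to GRCm39 (STAR 2.7) and summed reads by gene (HTSeq 0.9.1; versions as in the submitters' processing notes). The deposited table that was used holds these raw counts, with no normalization. Its 5 rows that name no gene, 12.7 to 15.2% of the reads, were left out. The TPM values from RSEM were not used, because their header has more names than the lines have cells.

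Counts were analysed with edgeR 4.0.16 in R 4.3.3, although the study used DESeq2: TMM normalization, filterByExpr by group (13679 genes) and the quasi-likelihood test with 1 coefficient per condition over all libraries and no block, with Benjamini-Hochberg adjustment over all genes tested. The median biological coefficient of variation was 7.06%, and replicates differed by more than sampling noise (chi-square per gene 2.19 to 35.9). *P* values measure the spread between these mice. Levels per kilobase used the union of exons in GENCODE M39. Ratios of pooled reads have exact 95% intervals for counting error only. Motifs were searched on both strands in the 300 bases before the annotated start of 21770 protein-coding genes.

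The numbers mark mice, so they pair the libraries. Deviations from the group mean correlated within a mouse with a median of 0.24 (56 of 60 pairs over 0.1) and between mice with a median of -0.05 (7 of 180 pairs). A replicate block was therefore an alternative, as were DESeq2 1.42.0, upper-quartile and RLE normalization, testing all genes with any reads (27890 genes) or those with 10 or more counts in every library (11017 genes), fits to the compared groups alone, 2.5-fold and 2-fold thresholds, and leaving out each mouse.

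Genes were named by this rule: all 10 genes in each comparison, and from each list those past the test with the 3 largest changes, a mean of at least 50 counts and 1 direction in 4 of 4 mice, of which a selection is given. Added to these were the 3 genes with the highest Pearson *r* to each of the 10 over the libraries, and overlapping or neighboring genes. Other values of *Irf7*, *Atf4*, *Nr1h2*, *Nceh1*, *Npc2*, *Gramd1b*, *Plin2*, *Abcg4* and *Cyp7b1* in the text were chosen after they were seen.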

Additional observations from a re-analysis of the deposited data

Results flagged for a closer look

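Among 60 groups of 4 libraries (10 genes in 6 conditions), 2 held a library set apart from the other 3 by Dixon's criterion, which chance alone meets in about 5% of groups. *Soat2* in the tunicamycin library of mouse 4 was at 59.3 CPM, while the other 3 tunicamycin libraries lay between 64.9 and 65.8 CPM. *Soat2* in the Oligo library of mouse 2 was at 50.3 CPM, and the other 3 lay between 52.3 and 52.6 CPM. In both groups the gap is small beside the distance from IL-4/IL-13, where *Soat2* was at 0.191 CPM on average.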

How the results depend on the processing

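Of 653 fold changes of the 10 genes recomputed under the alternatives, 622 kept their direction and their side of the threshold, 20 no longer passed it, 7 now passed and 4 changed sign. All 4 had not passed in the first place: *Apoe* in Oli_ISR minus IL-4/IL-13 was -0.0071 with upper-quartile normalization and between -0.0021 and 0.060 when a mouse was left out (lowest without mouse 1), and *Soat1* in Oligo minus Oli_ISR was 0.018 with upper-quartile normalization and between -0.039 and 0.0098 when a mouse was left out (highest without mouse 4). The 7 are all *Abca1* in Oligo minus Oli_ISR. The replicate block, which uses the pairing by mouse, gave it -0.28 (edgeR adjusted *P* = 0.0213) and changed no other call. The cause was not tested.

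Leaving out each mouse gave 2 to 4 members higher with IL-4/IL-13, where *Ch25h*, *Soat1* and *Npc1* were lost in turn; the other counts stayed within 1.5 times. Thresholds of 2.5-fold and 2-fold left fewer genes by construction. With IL-4/IL-13 they left 0 and 1 higher and 2 and 3 lower. With tunicamycin, 2.5-fold left 2 higher and 4 lower. With Sal003 1 and 1 were higher and 0 and 0 lower, and in Oligo 3 and 3 higher and 1 and 1 lower. In Oli_ISR, as in Oligo minus Oli_ISR, 1 and 2 were higher and 0 and 0 lower. The shares of all genes at 2.5-fold stand with each comparison above, and those at 2-fold were not computed. With at least 10 counts in every library, *Soat2* was not tested and 3 genes were higher with Sal003, as *Ch25h* also missed the threshold. With only the groups compared, *Soat2* was not tested in IL-4/IL-13 minus naïve. Depth limits *Soat2* in naïve and IL-4/IL-13 macrophages and *Ch25h* where it is below 5 CPM.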
